A study of Mus musculus with 35 samples.

Results

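The cytotoxic granule and killer cell genes are 9 genes with which natural killer (NK) cells and cytotoxic T cells destroy other cells. They were taken by name from a table of 21203 genes: *Gzma*, *Gzmb*, *Gzmk*, *Prf1*, *Nkg7*, *Ctsw*, *Klrd1*, *Klrk1* and *Eomes*, and all 9 had a row. RNA-seq was run on bulk brain tissue of the left hemisphere, cut around the injection site (left cortex in the sample labels), from 34 mice in 7 groups of 4 or 5. The mice were male C57BL/6NCrl, between 8 and 9 weeks old when procedures began. Sham mice (SHAM, n = 5) had no impact and no treatment, and 2 of them belonged to the 1 week arm and 3 to the 3 week arm. All other mice received a closed head injury and, 5 days later, an injection into the left hippocampus. The injection was of phosphate-buffered saline in the PBS groups, of naïve mesenchymal stromal cells in the MSC groups, and in the IL4 groups of such cells transfected with synthetic IL-4 mRNA. Tissue was taken 1 week or 3 weeks post injury, which is 2 or 16 days after treatment, giving PBS.1WK, MSC.1WK, IL4.1WK, MSC.3WK and IL4.3WK with n = 5 each and PBS.3WK with n = 4. The stromal cells came from the same mouse strain as the hosts, so RNA of grafted and of host cells cannot be told apart, and the labels carry a number shared by all mice of a treated group, so that anything going with that number cannot be told apart from the treatment and week. In bulk tissue, fewer cells of a type and less RNA per cell cannot be told apart either.

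Cytotoxic lymphocytes store perforin and granzymes in secretory granules. On contact with a target, the granules are released, perforin opens the target's membrane, and the granzymes, which are serine proteases, enter and start cell death. Receptors of the killer cell lectin family decide whether a cell is attacked, and T-box transcription factors set up the program. In the healthy brain such cells are scarce, and they enter from the blood after injury or infection.

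Among the members, *Gzma* and *Gzmb* encode the granzymes most abundant in armed killer cells, *Gzmk* encodes a granzyme of memory T cells, and *Prf1* encodes perforin. *Nkg7* encodes a membrane protein of the granules and *Ctsw* a cathepsin of NK and cytotoxic T cells. *Klrd1* (CD94) and *Klrk1* (NKG2D) encode lectin-like receptors. *Eomes* encodes a T-box factor of NK and CD8 T cells that is also made by progenitors and some neurons of the forebrain. *Gzma* lies at chr13:113093825-113100981 and *Gzmk* at chr13:113171608-113225908, both on the minus strand of GRCm38, and *Klrd1* at chr6:129591782-129598775 stands next to *Klrk1* at chr6:129610323-129623864. The others are *Gzmb* at chr14:56258838-56262260, *Prf1* at chr10:61297833-61304680, *Nkg7* at chr7:43437073-43438249, *Ctsw* at chr19:5465043-5468507 and *Eomes* at chr9:118478212-118486132.

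The 250 bases before the start of the 4 granule genes that moved most at 1 week and of *Gzmk*, which passed no test, show what the promoters of this group look like. Sequences are RefSeq, build GRCm38.p6, written 5′ to 3′ on the gene's own strand, and were found for 7 of the 9 members, not for *Klrd1* and *Ctsw*. Capitals mark matches to 3 motifs searched on both strands: the T-box core GGTGTGA, the RUNX core TGTGGT, which reads as ACCACA on the other strand, and the STAT site TTCNNNGAA. No marked matches overlap. For some members the RefSeq start differs from the gene span given above. By those spans the *Gzmk* window and the end of the *Nkg7* and *Prf1* windows lie inside the gene.
Gzma, chr13:113100982-113101231, minus strand: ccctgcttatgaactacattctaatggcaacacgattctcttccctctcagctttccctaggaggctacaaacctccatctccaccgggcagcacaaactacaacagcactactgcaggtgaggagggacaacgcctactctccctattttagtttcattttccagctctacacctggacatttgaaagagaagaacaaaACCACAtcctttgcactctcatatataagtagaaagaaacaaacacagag
Gzmb, chr14:56262335-56262584, minus strand: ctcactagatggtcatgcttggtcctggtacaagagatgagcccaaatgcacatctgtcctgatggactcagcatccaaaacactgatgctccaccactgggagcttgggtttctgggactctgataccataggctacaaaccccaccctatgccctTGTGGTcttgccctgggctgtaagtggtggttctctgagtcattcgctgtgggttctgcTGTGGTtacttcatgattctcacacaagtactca
Prf1, chr10:61297586-61297835, plus strand: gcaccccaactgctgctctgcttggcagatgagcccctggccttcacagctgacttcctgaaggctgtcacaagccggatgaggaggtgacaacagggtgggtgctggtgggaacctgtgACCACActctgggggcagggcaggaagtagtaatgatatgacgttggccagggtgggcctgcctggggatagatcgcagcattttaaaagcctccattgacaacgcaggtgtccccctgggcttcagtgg
Nkg7, chr7:43436888-43437137, plus strand: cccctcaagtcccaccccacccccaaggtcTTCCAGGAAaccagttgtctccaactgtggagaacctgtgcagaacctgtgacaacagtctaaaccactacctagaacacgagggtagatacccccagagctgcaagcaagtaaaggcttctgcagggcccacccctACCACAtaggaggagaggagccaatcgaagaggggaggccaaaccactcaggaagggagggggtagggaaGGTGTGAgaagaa
Gzmk, chr13:113180966-113181215, minus strand: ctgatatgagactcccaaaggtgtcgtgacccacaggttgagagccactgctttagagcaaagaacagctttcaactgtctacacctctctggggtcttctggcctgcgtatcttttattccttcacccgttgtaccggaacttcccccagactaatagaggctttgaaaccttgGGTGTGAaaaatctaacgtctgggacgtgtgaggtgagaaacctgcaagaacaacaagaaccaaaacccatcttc
The RUNX core was in 5 of the 7 member promoters (*Gzma*, *Gzmb*, *Prf1*, *Nkg7* and *Klrk1*) and in 14.0% of all 32851 promoters of that length. *Gzmb* held it at 93 and 34 bases before the start. The T-box core was in 2 of 7 (*Nkg7*, 13 bases before the RefSeq start, and *Gzmk*, 75 bases before it) and in 3.33% of all promoters. Both of these matches lie inside the gene spans given above. The STAT site was in 1 of 7 (*Nkg7*) and in 7.02% of all. These matches are descriptions of letters in a window, and their part in the level of any member was not tested.

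Libraries held between 29838423 and 41554322 estimated counts, so 1 count was worth 0.0241 to 0.0335 CPM (the count scaled to a common library total). A level of 3 counts was used as the detection floor, between 0.0722 and 0.101 CPM. Several members lay near it. *Gzmb* was above 3 counts in 10 of 34 libraries, *Gzma* in 11, *Nkg7* in 15, *Klrd1* in 20, *Klrk1* in 25, *Prf1* in 27 and *Gzmk* in 33, while *Ctsw* and *Eomes* were above it in all 34. *Gzma* and *Gzmb* were at 0 counts in 7 libraries each. All 9 members passed the filter on low counts, which needed about 0.306 CPM in the number of libraries of a small group, but *Gzma* and *Gzmb* reached that level outside IL4.1WK in only 1 library, *Prf1* in 2, *Klrd1* and *Klrk1* in 5 and *Nkg7* in 6. A member that passed mainly through IL4.1WK had to be high there, so the counts of called members below describe the genes and are not a test of the group. Tests are edgeR quasi-likelihood tests over 17131 genes with Benjamini-Hochberg adjustment and a threshold of 0.05, and the share of all tested genes that passed in the same direction stands beside each first count.

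*Gzma* was the member that set IL4.1WK apart from every other group. It was at 55, 164, 107, 97 and 37 counts in the 5 IL4.1WK mice. It was at 0, 1, 0, 0 and 0 counts in SHAM, 1, 1, 0, 1 and 2 in PBS.1WK and 2, 4, 2, 2 and 3 in MSC.1WK. At 3 weeks it was at 1, 0, 1 and 1 in PBS.3WK, 1, 4, 2, 2 and 14 in MSC.3WK and 7, 5, 3, 0 and 4 in IL4.3WK. Every IL4.1WK mouse was above every other mouse of the study. The mean was 2.74 ± 1.35 CPM (SD, n = 5) in IL4.1WK against 0.0293 ± 0.0210 in PBS.1WK, 6.33 ± 0.54 higher on the log2 scale (± is the SE; adjusted p = 2.69e-10, edgeR), and against MSC.1WK the log2 fold change was 5.05 ± 0.47 (adjusted p = 2.07e-09). Against SHAM, which held 1 count in 5 libraries, the ratio was 482 with a 95% counting interval from 86.1 to 19089 (adjusted p = 1.14e-11). Per transcript length *Gzma* was the highest of the 9 members in IL4.1WK, at a mean of 7.91 TPM, followed by *Klrd1* at 2.89 TPM.

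*Gzmb* was at 15, 48, 25, 25 and 21 counts in IL4.1WK. It was at 0 counts in all 5 SHAM mice, 1, 0, 3, 3 and 2 in PBS.1WK and 1, 1, 3, 1 and 1 in MSC.1WK, none above 3 counts. At 3 weeks it was at 1, 0, 1 and 1 in PBS.3WK, 3, 9, 2, 4 and 57 in MSC.3WK and 5, 3, 1, 1 and 5 in IL4.3WK. IL4.1WK overlapped no group but MSC.3WK, where 1 mouse, MSC.3WK replicate 4, was the highest of all 34. The mean was 0.797 ± 0.330 CPM in IL4.1WK, which is a log2 fold change of 3.78 ± 0.72 over PBS.1WK (adjusted p = 0.000348) and 4.13 ± 0.75 over MSC.1WK (adjusted p = 0.000281). Against SHAM, taken at the floor of 3 counts per library, it was at least 9.12-fold higher (adjusted p = 4.88e-06).

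*Gzmk* did not follow the other granzymes. It was between 3 and 20 counts in every library, with group means from 0.251 CPM in PBS.3WK to 0.408 CPM in MSC.3WK, and all groups overlapped. In IL4.1WK it was at 6, 9, 5, 11 and 12 counts against 7, 9, 11, 13 and 11 in PBS.1WK, a log2 fold change of -0.26 ± 0.33 (adjusted p = 0.672). It passed the edgeR test in none of the 15 comparisons, with an unadjusted p under 0.05 in 1 (MSC.3WK against PBS.3WK, 0.0465), and DESeq2 called it in none, giving no adjusted p for IL4.3WK against MSC.3WK.

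Perforin was low throughout. *Prf1* was at 15.18, 29.17, 14.53, 20.56 and 7.44 estimated counts in IL4.1WK, against 5.07, 5.26, 1.0, 3.02 and 3.02 in PBS.1WK, 2.08, 4.12, 3.03, 1.04 and 0 in MSC.1WK and 2.04 to 4.07 in SHAM. The IL4.1WK mice were all above these 3 groups, although the lowest, at 7.44, was near the highest PBS.1WK mouse. The log2 fold change was 2.31 ± 0.43 over PBS.1WK (adjusted p = 0.000174), 3.04 ± 0.47 over MSC.1WK (adjusted p = 1.8e-05) and 2.47 ± 0.44 over SHAM (adjusted p = 3.2e-05). *Prf1* and *Eomes* were the members whose estimated counts were mostly not whole numbers.

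*Nkg7* and *Ctsw* were also highest in IL4.1WK at 1 week. *Nkg7* was at 11, 16, 18, 21 and 11 counts in IL4.1WK and at 4 or fewer in every SHAM, PBS.1WK and MSC.1WK mouse. Its log2 fold change was 3.00 ± 0.58 over PBS.1WK (adjusted p = 0.00033) and 3.16 ± 0.60 over MSC.1WK (adjusted p = 0.000307). *Ctsw* was found in every mouse, at 35, 54, 25, 27 and 25 counts in IL4.1WK, 15, 20, 16, 10 and 12 in PBS.1WK, 13, 13, 13, 8 and 17 in MSC.1WK and 8 to 17 in SHAM. No IL4.1WK mouse overlapped these groups, and the difference was smaller than those of *Gzma* and *Gzmb*, at 1.18 ± 0.29 on the log2 scale over PBS.1WK (adjusted p = 0.00448) and 1.36 ± 0.30 over MSC.1WK (adjusted p = 0.00183).

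Among the receptors, *Klrd1* was at 24, 28, 26, 18 and 18 counts in IL4.1WK, 3, 6, 5, 7 and 3 in PBS.1WK, 3, 6, 13, 5 and 3 in MSC.1WK and 1, 1, 1, 0 and 2 in SHAM. It was the 1 member that also passed the test at 1 week in the injured mice without IL-4, and all PBS.1WK and all MSC.1WK mice were above all SHAM mice. The log2 fold change over SHAM was 2.13 ± 0.70 in PBS.1WK (adjusted p = 0.0393), 2.43 ± 0.68 in MSC.1WK (adjusted p = 0.0102) and 4.34 ± 0.56 in IL4.1WK (adjusted p = 1.48e-07). The first of these was lost, with adjusted p up to 0.0935, on leaving out any of SHAM replicates 0, 1, 2 and 3 or PBS.1WK replicates 1, 2 and 3, and the MSC.1WK value was lost without MSC.1WK replicate 2 (adjusted p = 0.0639). Between treatments, IL4.1WK was above PBS.1WK by 2.21 ± 0.42 (adjusted p = 0.000261) and above MSC.1WK by 1.91 ± 0.41 on the log2 scale (adjusted p = 0.00139). *Klrk1* was at 27, 37, 28, 30 and 17 counts in IL4.1WK, 5, 3, 6, 10 and 6 in PBS.1WK, 2, 7, 17, 0 and 12 in MSC.1WK and 3, 0, 3, 4 and 0 in SHAM. The highest MSC.1WK mouse was at the count of the lowest IL4.1WK mouse. The log2 fold change was 2.17 ± 0.56 over PBS.1WK (adjusted p = 0.00617) and 1.86 ± 0.54 over MSC.1WK (adjusted p = 0.0240). The second passed in the full data but not without MSC.1WK replicate 0 or 3 or IL4.1WK replicate 1, where the adjusted p was between 0.0596 and 0.0703.

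*Eomes* behaved differently. It was at 19.52, 41.08, 84.15, 59.22 and 20.38 counts in IL4.1WK and at 25.67, 20.43, 36.92, 12.23 and 23.67 in PBS.1WK, so that these groups overlapped (log2 fold change 0.87 ± 0.43, adjusted p = 0.174). Over SHAM, with 15.39, 8.23, 21.63, 16.36 and 21.54 counts, IL4.1WK was higher by 1.38 ± 0.45 (adjusted p = 0.0154), with 3 of 5 mice above all SHAM mice. That call was lost without SHAM replicate 1 or IL4.1WK replicate 2 (adjusted p 0.0554 and 0.0795).

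**Figure D1:**
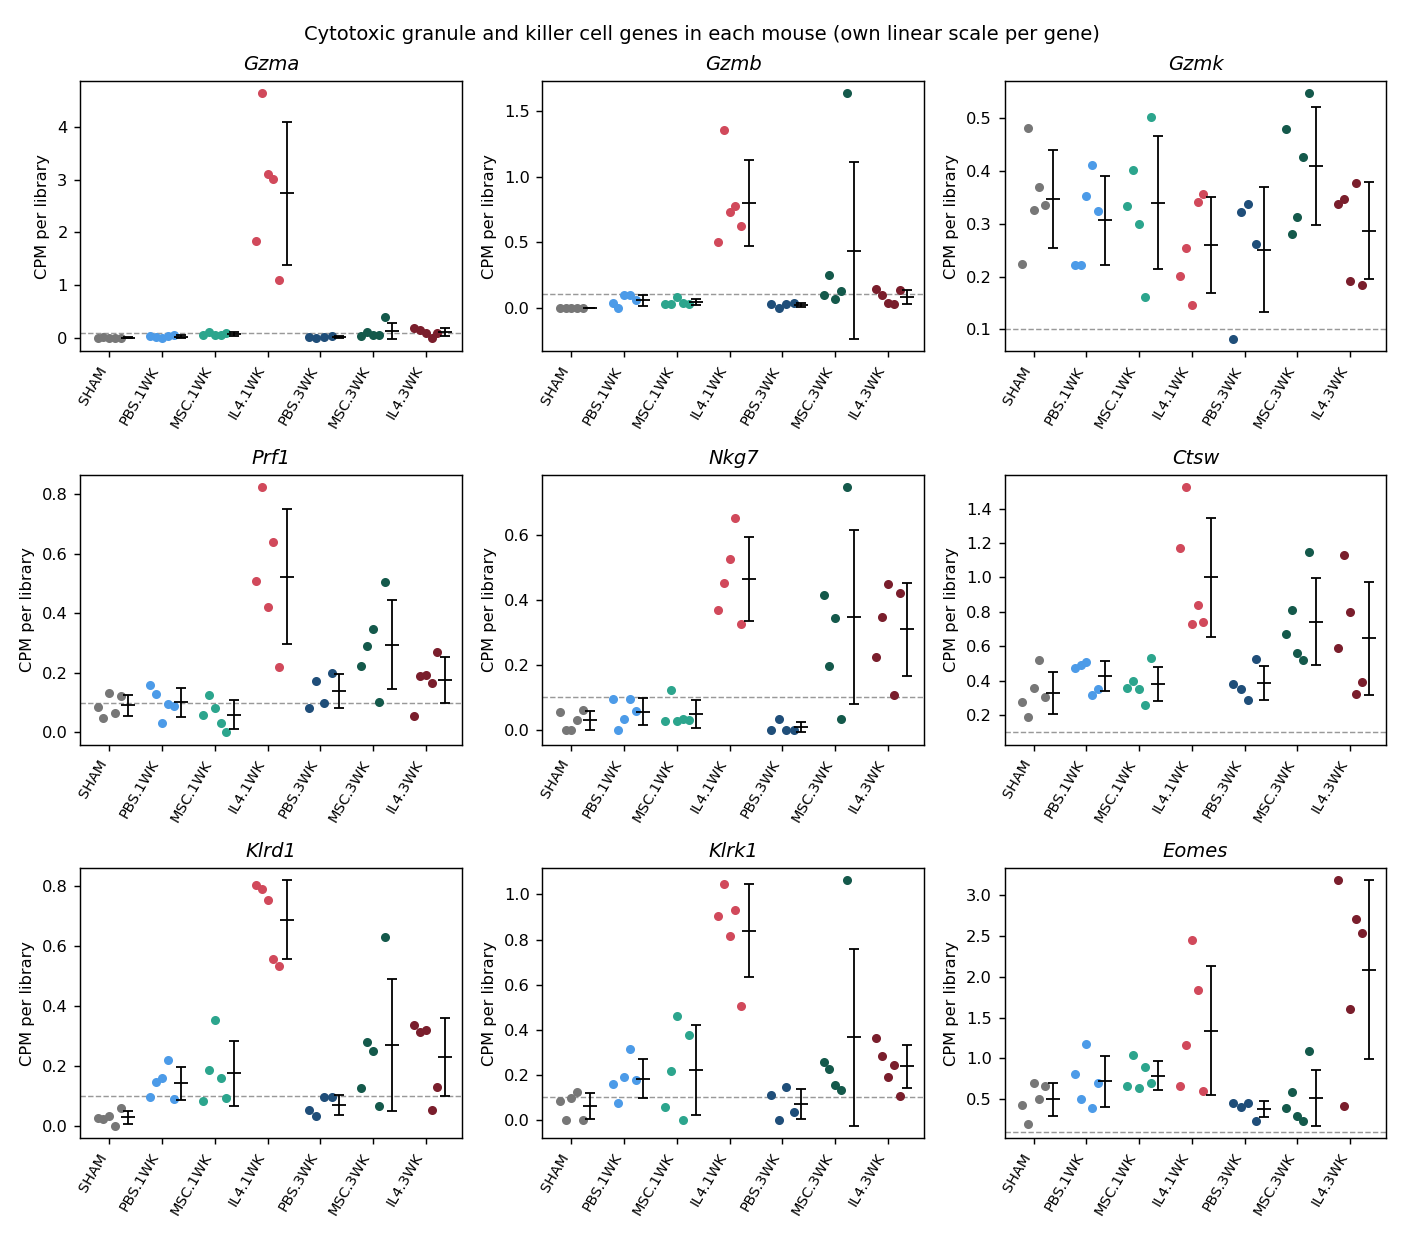
CPM of each of the 9 genes (linear axis, own scale per panel) in each mouse of the 7 groups, with the group mean and SD in black and the highest detection floor, 0.101 CPM, as a dashed line. The IL4.1WK mice are above all other 1 week mice for 7 genes, *Gzmk* overlaps between all groups, and 1 MSC.3WK mouse stands far above its group for *Gzmb* and *Klrk1*.

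Counted over the 9 members, 7 were higher in IL4.1WK than in PBS.1WK (11.2% of all tested genes were) and the same 7 were higher than in MSC.1WK (7.66% of all). In each of those comparisons the 5 mice of IL4.1WK were above all 5 mice of the other group for those 7 genes. The share of all genes so separated was not counted. For members that passed the filter mainly through IL4.1WK this separation is partly built in. Against SHAM 8 members were higher in IL4.1WK (18.4% of all genes), 1 in PBS.1WK (8.73%) and 1 in MSC.1WK (11.0%). The 3 comparisons share the sham mice. With the 2 SHAM mice of week 1 alone, 8 still passed in IL4.1WK, and *Klrd1* no longer passed in PBS.1WK (adjusted p = 0.139) or MSC.1WK (adjusted p = 0.0618). The median log2 fold change of the members over SHAM was 3.70 in IL4.1WK as fitted, and 3.19 with *Gzma* and *Gzmb* at their count bounds, against -0.02 for all genes. Between MSC.1WK and PBS.1WK no member passed the edgeR test (0.123% of all genes were higher), none had an unadjusted p under 0.05 and DESeq2 called 0. For that pair the log2 difference was 0.30 ± 0.50 for *Klrd1*, 0.31 ± 0.65 for *Klrk1* and -0.73 ± 0.61 for *Prf1*, and *Gzma*, *Gzmb* and *Nkg7* had mean levels under the floor in both groups.

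**Figure D2:**
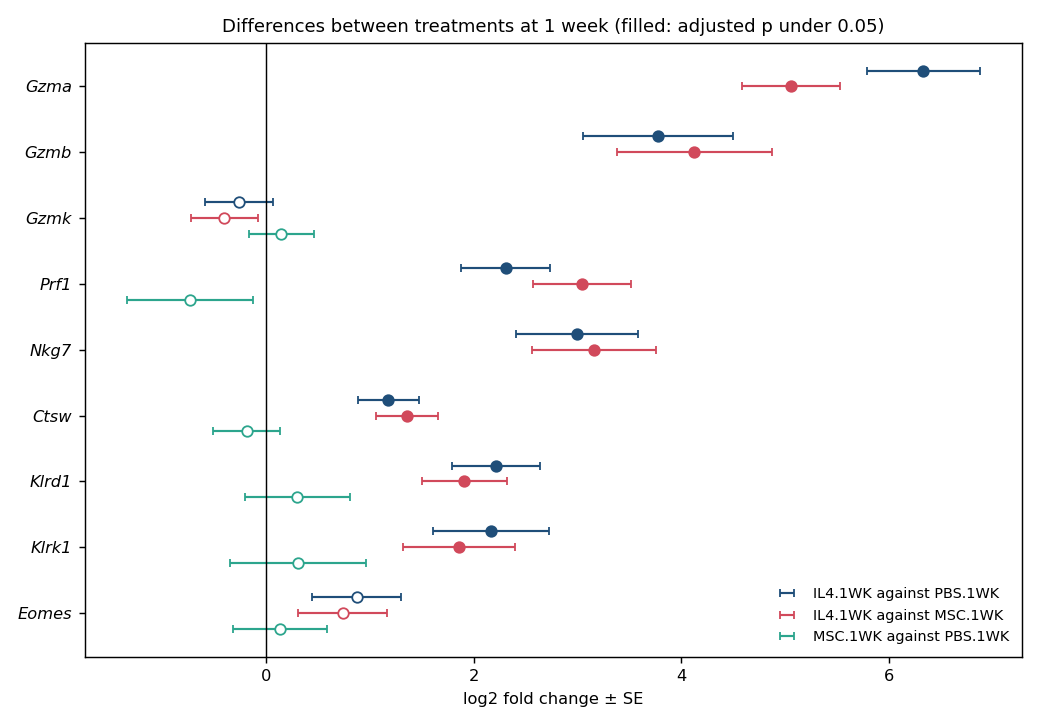
Log2 fold change (horizontal axis, ± SE) of each member between treatments at 1 week, filled where the adjusted p was under 0.05. Genes whose mean was under the floor in both groups are left out. IL4.1WK was above PBS.1WK and MSC.1WK for 7 of 9 genes, from 1.18 for *Ctsw* to 6.33 for *Gzma* against PBS.1WK.

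The other genes of the pathway are given by list. Of the genes that ripen and release granules, 9 of 10 tested were higher in IL4.1WK than in SHAM, 8 than in PBS.1WK and 4 than in MSC.1WK. Over SHAM 6 of the 10 were also higher in PBS.1WK and 5 in MSC.1WK. *Srgn*, the proteoglycan core on which granzymes are packed, was 2.93 ± 0.24 above PBS.1WK on the log2 scale (adjusted p = 8.51e-11), and *Ctsc*, the protease that activates granzymes, was 1.46 ± 0.16 above it (adjusted p = 4.02e-08). Both genes are also made by macrophages, and all 6 macrophage and microglia markers were higher in IL4.1WK than in SHAM, with summed levels of 344 to 421 CPM against 116 to 189, and 5 of 6 were higher than in PBS.1WK. The part of those cells in the change of *Srgn* and *Ctsc* was not tested.

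Of the other killer cell receptors and adaptors, 10 of 12 were tested and 7 were higher in IL4.1WK than in SHAM, 6 than in PBS.1WK and 4 than in MSC.1WK. Over SHAM 2 were also higher in PBS.1WK and 4 in MSC.1WK. *Tyrobp* had the smallest adjusted p of this list in IL4.1WK over SHAM (1.97 ± 0.15, adjusted p = 2.15e-12). It was also higher over SHAM in PBS.1WK (1.36 ± 0.15, adjusted p = 1.11e-07) and MSC.1WK (1.44 ± 0.15, adjusted p = 2.08e-08). The cell type behind *Tyrobp* was not tested. *Il2rb*, the receptor chain for IL-2 and IL-15, was 2.69 ± 0.29 above PBS.1WK (adjusted p = 3.09e-08). *Klrb1c*, the NK1.1 antigen, was at 12.0, 31.73, 14.0, 24.11 and 6.87 counts in IL4.1WK and at 5.22 or fewer in every other mouse, with a log2 fold change of 3.06 ± 0.54 over PBS.1WK (adjusted p = 9.46e-05). *Klrc1*, the NKG2A partner of CD94, was 3.29 ± 0.65 above PBS.1WK (adjusted p = 0.000364).

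Among 8 tested lymphocyte transcription factors, 4 were higher in IL4.1WK than in PBS.1WK. *Runx3*, a factor of cytotoxic lymphocytes, was 2.42 ± 0.25 above it (adjusted p = 1.08e-08) and *Prdm1* 0.92 ± 0.15 (adjusted p = 2.79e-05). Of 4 tested ligands that killer cell receptors read, 3 were higher in IL4.1WK than in PBS.1WK. *H2-T23*, which encodes the Qa-1 heavy chain bound by CD94 with NKG2A, was higher by 1.48 ± 0.11 (adjusted p = 1.35e-11). The NKG2D ligands *Ulbp1* and *Raet1d* were higher by 1.03 ± 0.27 (adjusted p = 0.00612) and 1.45 ± 0.49 (adjusted p = 0.0372). Against MSC.1WK 1 of the 4 passed, *H2-T23* (1.14 ± 0.11, adjusted p = 2.56e-09). *Ulbp1* was also higher over SHAM in PBS.1WK (1.40 ± 0.32, adjusted p = 0.00233) and MSC.1WK (2.00 ± 0.31, adjusted p = 1.28e-05).

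Of 10 tested genes for the recruitment of killer cells, 6 were higher in IL4.1WK than in PBS.1WK, led by *Cxcl16* (1.51 ± 0.17, adjusted p = 9.27e-08) and *Ccl5* (2.91 ± 0.35, adjusted p = 2.21e-07). Of the same 10, 5 were higher than in MSC.1WK. Against SHAM 9 were higher and 1 lower in IL4.1WK, 6 were higher in PBS.1WK and 7 in MSC.1WK. *Ccl3* and *Ccl4*, which were higher over SHAM at 1 week, were at like levels in IL4.1WK and PBS.1WK (log2 difference -0.53 and 0.12). Of the cytokines and receptors that drive killer cells 2 of 8 passed against PBS.1WK, *Il2rg* (1.96 ± 0.31, adjusted p = 1.48e-05) and *Il21r* (0.87 ± 0.15, adjusted p = 5.14e-05). Of the death ligands and killer cell cytokines only 2 of 7 were tested, and *Tnfsf10* (TRAIL) was 0.70 ± 0.18 higher (adjusted p = 0.0061). *Ifng*, the main cytokine of killer cells, was under the filter, at group means from 0.0061 to 0.0411 CPM. These gene lists are shown by their counts. Of all tested genes 11.2% were higher in IL4.1WK than in PBS.1WK, 7.66% than in MSC.1WK and 18.4% than in SHAM. Over SHAM 8.73% were higher in PBS.1WK and 11.0% in MSC.1WK.

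Between 1 and 3 weeks the members changed in the IL4 and MSC mice. Within the IL4 treatment, 5 members were lower at 3 weeks than at 1 week (16.6% of all genes were lower), namely *Gzma* (log2 fold change -4.54 ± 0.44, adjusted p = 1.18e-09), *Gzmb* (-3.11 ± 0.66, adjusted p = 0.000503), *Prf1* (-1.53 ± 0.39, adjusted p = 0.00258), *Klrd1* (-1.53 ± 0.39, adjusted p = 0.00272) and *Klrk1* (-1.75 ± 0.53, adjusted p = 0.0108). For 4 of them, all but *Prf1*, no IL4.3WK mouse reached the lowest IL4.1WK mouse, and the share of all genes so separated was not counted. *Nkg7* was at 8, 11, 14, 4 and 16 counts in IL4.3WK, a log2 difference of -0.54 ± 0.43 from IL4.1WK (adjusted p = 0.377), and *Ctsw* at 21, 36, 25, 12 and 15, a difference of -0.59 ± 0.28 (adjusted p = 0.109). These 2 did not pass the test.

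Within the MSC treatment, 4 members were higher at 3 weeks than at 1 week (1.22% of all genes were higher). *Nkg7* went from 1, 4, 1, 1 and 1 counts to 13, 7, 11, 1 and 26, with a log2 fold change of 2.81 ± 0.62 (adjusted p = 0.0036). *Prf1* was at 7.03, 10.35, 11.1, 3.12 and 17.63 counts in MSC.3WK (2.28 ± 0.51, adjusted p = 0.00393). In both, 4 of 5 MSC.3WK mice were above all MSC.1WK mice. *Gzmb* (3.34 ± 0.80, adjusted p = 0.00927) and *Ctsw* (1.00 ± 0.31, adjusted p = 0.0454) passed in the full data, but without MSC.3WK replicate 4 the values were 1.68 (adjusted p = 0.116) and 0.78 (adjusted p = 0.146). The *Ctsw* call was also lost without any of MSC.1WK replicates 0 to 3 or MSC.3WK replicates 0 and 1, with adjusted p from 0.0609. Within PBS no member passed between the weeks (4.90% of all genes were lower at 3 weeks), none had an unadjusted p under 0.05 and DESeq2 called 0.

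**Figure D3:**
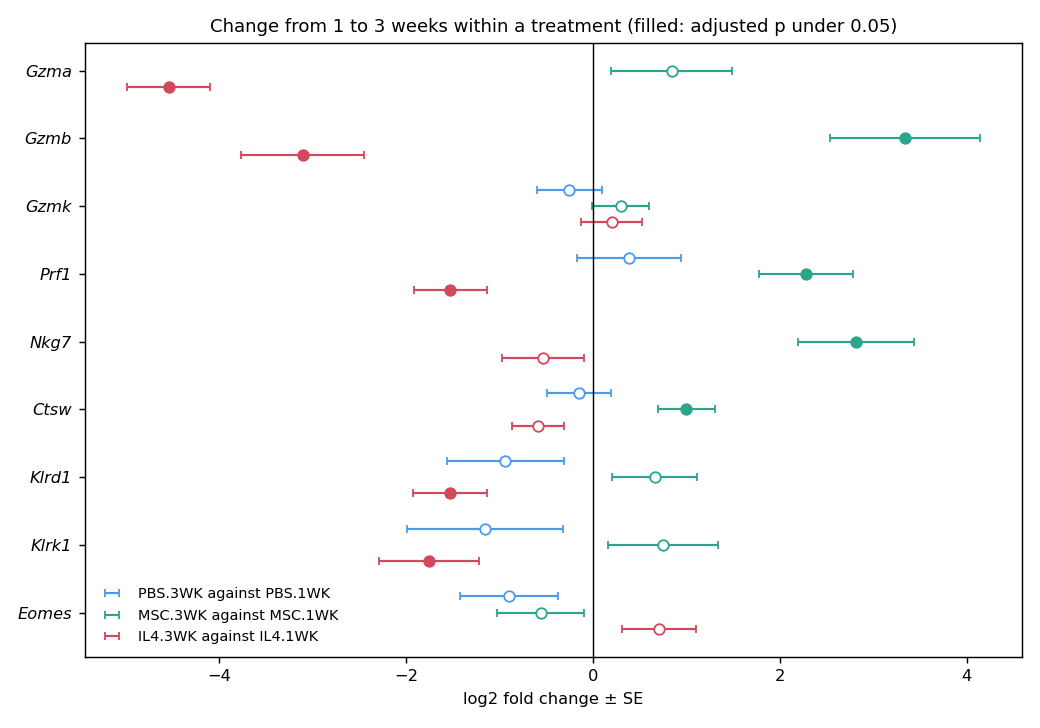
Log2 fold change (horizontal axis, ± SE) of each member from 1 to 3 weeks within each treatment, filled where the adjusted p was under 0.05. Genes under the floor in both groups, or with 3 counts or fewer in a group, are left out. *Gzma*, *Gzmb*, *Prf1*, *Klrd1* and *Klrk1* were lower at 3 weeks in IL4 mice, and *Gzmb*, *Prf1*, *Nkg7* and *Ctsw* were higher at 3 weeks in MSC mice.

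Whether IL4 and MSC differed alike at both weeks was tested as the difference between weeks of the IL4 against MSC contrast. It passed for 7 members, all but *Gzmk* and *Eomes* (5.96% of all genes passed in that direction). The difference of log2 fold changes was 6.45 ± 1.03 for *Gzmb* (adjusted p = 0.000147), 5.38 ± 0.82 for *Gzma* (adjusted p = 4.84e-05), 3.81 ± 0.64 for *Prf1* (adjusted p = 0.000171), 3.35 ± 0.76 for *Nkg7* (adjusted p = 0.00479), 2.50 ± 0.80 for *Klrk1* (adjusted p = 0.0478), 2.19 ± 0.60 for *Klrd1* (adjusted p = 0.0196) and 1.59 ± 0.41 for *Ctsw* (adjusted p = 0.0138). *Klrd1* and *Klrk1* depended on MSC.3WK replicate 4, without which they were 1.63 (adjusted p = 0.108) and 1.59 (adjusted p = 0.272). Without that mouse *Gzmb* was 4.81 (adjusted p = 0.000178) and *Gzma* 4.44 (adjusted p = 0.00285), and both still passed. *Klrk1* was also lost without any of 10 other mice, namely MSC.1WK replicates 0, 1 and 3, IL4.1WK replicates 0 to 3 and IL4.3WK replicates 2, 3 and 4. For IL4 against PBS no member passed this test by edgeR (3.93% of all genes did), with 3 at an unadjusted p under 0.05 and 1 called by DESeq2. For MSC against PBS no gene of the 17131 passed by edgeR, with 5 members at an unadjusted p under 0.05, and of the 6 genes called by DESeq2 0 were members.

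At 3 weeks 4 of the 9 members were higher than in SHAM in each of the cell treated groups. In MSC.3WK 4 passed (1.11% of all genes were higher): *Nkg7* (3.43 ± 0.67, adjusted p = 0.00549), *Klrd1* (3.09 ± 0.63, adjusted p = 0.00722), *Gzmb* (at least 4.99-fold, adjusted p = 0.00355) and *Gzma* (ratio 24.3, counting interval 3.94 to 1000, adjusted p = 0.0496). In IL4.3WK 4 passed (2.76% of all genes): *Nkg7* (3.24 ± 0.68, adjusted p = 0.00629), *Klrd1* (2.81 ± 0.65, adjusted p = 0.0113), *Eomes* (2.09 ± 0.44, adjusted p = 0.00618) and *Gzma* (ratio 18.9, counting interval 3.01 to 786, adjusted p = 0.0468). The bound for *Gzmb* was carried by MSC.3WK replicate 4. Without it the mean fell from 0.436 to 0.135 CPM, against a SHAM floor of 0.0874 CPM, and the test still passed (adjusted p = 0.00974). The 2 calls of *Gzma* lay at the threshold. That of MSC.3WK was lost without any SHAM mouse or MSC.3WK replicate 1 or 4 (adjusted p 0.0570 to 0.355), and that of IL4.3WK without any SHAM mouse or IL4.3WK replicate 0, 2 or 4 (0.0612 to 0.116). With the 3 SHAM mice of week 3 alone as the control, none of these 8 calls passed (adjusted p from 0.0517 for *Gzmb* in MSC.3WK to 0.171 for *Gzma* in MSC.3WK). In PBS.3WK no member passed against SHAM (0.0233% of all genes were higher), none had an unadjusted p under 0.05 and DESeq2 called 0.

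Between treatments at 3 weeks *Nkg7* was the 1 member that passed over saline in both cell groups. It was at 0, 1, 0 and 0 counts in PBS.3WK, against 13, 7, 11, 1 and 26 in MSC.3WK and 8, 11, 14, 4 and 16 in IL4.3WK. The groups did not overlap in CPM, but MSC.3WK replicate 3, with 1 count, was at 0.0327 CPM beside 0.0322 CPM in the highest PBS.3WK mouse. The ratio to PBS.3WK was 49.3 in MSC.3WK (counting interval 8.50 to 1979, adjusted p = 0.00914) and 42.4 in IL4.3WK (counting interval 7.30 to 1708, adjusted p = 0.00551). *Nkg7* was the 1 member to pass in MSC.3WK against PBS.3WK (0.0817% of all genes were higher), and that call was lost without PBS.3WK replicate 0 or 2 or MSC.3WK replicate 4 (adjusted p 0.0504 to 0.0876). Before adjustment 8 of the 9 members had an edgeR p under 0.05 in this comparison, all higher. Of all 17131 tested genes 981 had such a p in either direction. In IL4.3WK against PBS.3WK *Nkg7* and *Eomes* passed (2.17% of all genes), and against MSC.3WK *Eomes* alone (2.29%). An unadjusted p under 0.05 was reached by 5 members against PBS.3WK, all higher, and by 2895 of all tested genes in either direction. *Gzmb* did not pass between the cell groups at 3 weeks, at 5, 3, 1, 1 and 5 counts in IL4.3WK against 3, 9, 2, 4 and 57 in MSC.3WK (adjusted p = 0.0615).

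MSC.3WK replicate 4 accounts for much of the scatter of its group. It held 1.64 CPM of *Gzmb* against at most 0.253 CPM in the other 4 mice, 1.06 CPM of *Klrk1* against at most 0.255 and 0.402 CPM of *Gzma* against at most 0.112. It was the highest MSC.3WK mouse for all 9 members, from 1.46 times the mean of the others for *Gzmk* to 12.1 times for *Gzmb*. Without it 2 members passed in MSC.3WK against SHAM in place of 4.

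From 1 to 3 weeks in IL4 mice 1 of 3 tested NK cell markers was lower and none higher, and 4 of 10 T cell markers were higher and none lower. Of all tested genes 16.6% were lower by edgeR, and DESeq2 called 2474 genes higher and 2963 lower. The lists were not tested against each other. *Ncr1*, the NK receptor NKp46, was at 7, 16, 11, 4 and 3 counts in IL4.1WK, at 0 in every SHAM and PBS.3WK mouse and at 3 or fewer in every other mouse, and was under the filter. *Klrb1c* was lower by 4.00 ± 0.61 on the log2 scale at 3 weeks than at 1 week in IL4 mice (adjusted p = 4.38e-06). *Klrc1* did not follow it. It was at 15.57, 9.71, 6.43, 15.88 and 5.83 counts in IL4.1WK and 6.69, 7.81, 13.11, 3.0 and 4.3 in IL4.3WK (log2 difference -0.62 ± 0.46, adjusted p = 0.325), against 1.0 or fewer in SHAM, and in MSC mice it was higher at 3 weeks than at 1 week by 2.32 ± 0.65 (adjusted p = 0.0245). Summed over the 4 NK cell markers *Ncr1*, *Klrb1c*, *Klrc1* and *Klre1*, IL4.1WK mice lay between 1.03 and 2.47 CPM and SHAM mice between 0.469 and 0.918 CPM, most of which was *Klre1*. *Cd3g*, a chain of the T cell receptor complex, went from 5, 8, 8, 6 and 6 counts in IL4.1WK to 23, 15, 18, 5 and 22 in IL4.3WK, higher by 1.31 ± 0.45 (adjusted p = 0.0241). *Cd8b1*, a chain of CD8, was at 6.3, 8.89, 9.93, 2.5 and 0 in IL4.1WK and at 26.68, 16.63, 24.69, 9.68 and 28.23 in IL4.3WK, higher by 1.91 ± 0.52 (adjusted p = 0.0047). *Cd8a* was higher by 0.97 ± 0.24 (adjusted p = 0.00194). In MSC mice *Cd8a* (1.69 ± 0.25, adjusted p = 2.65e-05), *Cd3e* (1.91 ± 0.38, adjusted p = 0.00113) and *Cd3g* (2.24 ± 0.50, adjusted p = 0.00387) were also higher at 3 weeks than at 1 week.

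Of 10 T cell markers, 5 were higher in IL4.1WK than in SHAM (18.4% of all genes were), 6 in MSC.3WK (1.11%) and 7 in IL4.3WK (2.76%). In PBS.1WK and PBS.3WK none passed by edgeR, with 4 and 1 at an unadjusted p under 0.05. The T cell marker *Cd2* was higher in IL4.1WK by 4.46 ± 0.75 over SHAM (edgeR adjusted p = 1.45e-05). It was higher by 3.35 ± 0.64 over PBS.1WK (adjusted p = 0.000267) and 2.31 ± 0.56 over MSC.1WK (adjusted p = 0.00473). Of the 10 markers 2 were higher than in PBS.1WK, *Cd2* and *Cd4* (1.86 ± 0.62, adjusted p = 0.0346). The 1 higher than in MSC.1WK was *Cd2*, and none was lower in either comparison. *Cd4* ran with the striatum markers, as given below, and the part of T cells in its call was not tested. None of the 10 was at 0 throughout. Their summed level was 8.57 to 14.9 CPM in IL4.1WK, 8.54 to 13.2 in MSC.3WK and 11.0 to 24.9 in IL4.3WK against 3.97 to 9.43 in SHAM, but *Cd4*, which made up much of the sum, ran with the striatum markers described below. In IL4.3WK replicates 0 to 4 it was at 402.64, 55.34, 380.05, 711.26 and 579.76 counts. Of 4 tested neutrophil markers none passed in IL4.1WK against SHAM by edgeR or had an unadjusted p under 0.05, and of 2 tested B cell markers 1 passed (*Cd79b*). The neutrophil gene *S100a8* was higher in MSC.1WK than in SHAM (2.34 ± 0.82, adjusted p = 0.0439). The part of each cell type in the member genes was not tested.

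**Figure D4:**
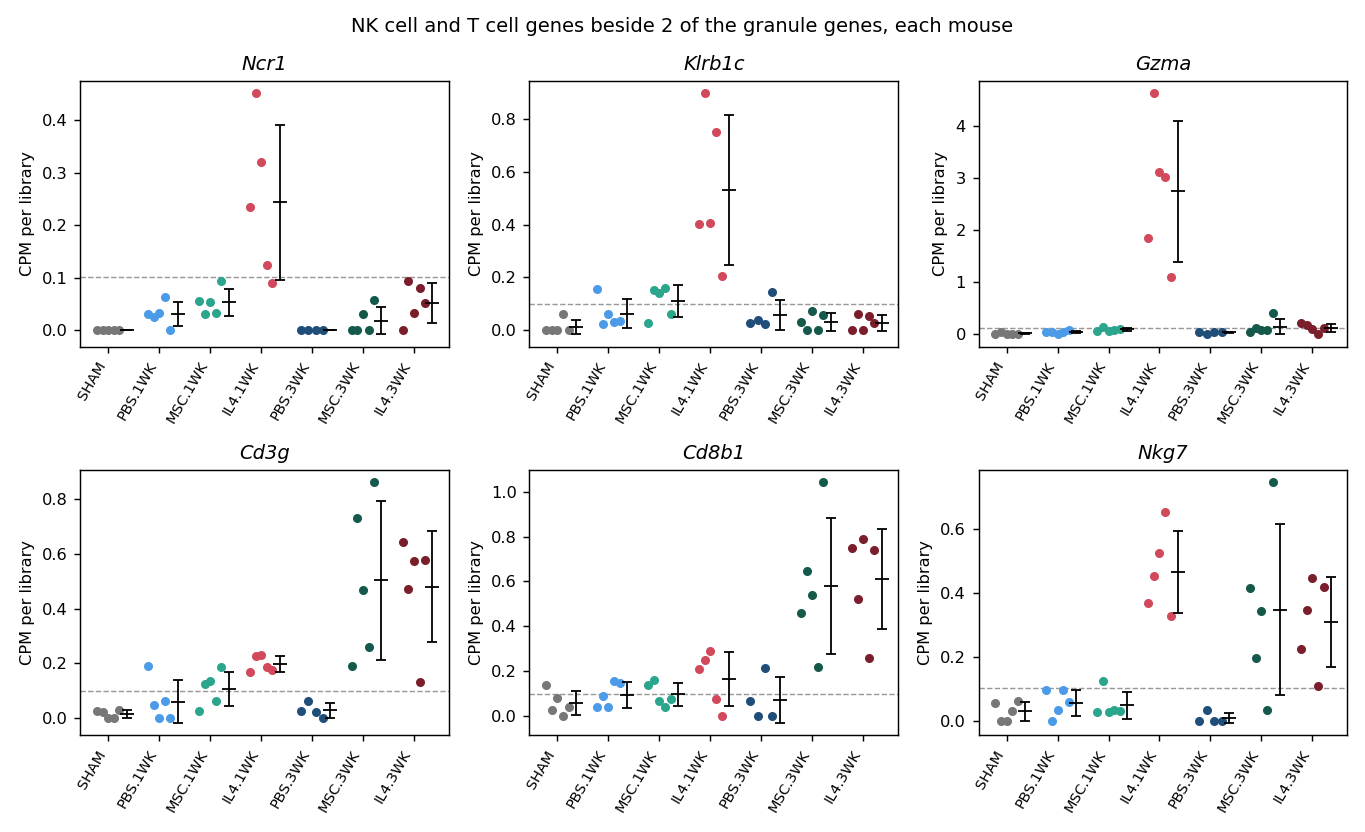
CPM (linear axis, own scale per panel) of the NK cell genes *Ncr1* and *Klrb1c*, the T cell genes *Cd3g* and *Cd8b1* and the members *Gzma* and *Nkg7* in each mouse, with group mean and SD in black and the floor of 0.101 CPM dashed. *Ncr1*, *Klrb1c* and *Gzma* are high in IL4.1WK, *Cd3g* and *Cd8b1* in MSC.3WK and IL4.3WK, and *Nkg7* in all 3 groups. The T cell gene *Cd2*, which was higher in IL4.1WK than in PBS.1WK and MSC.1WK, and the NK cell gene *Klrc1* are not shown.

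*Eomes* was the member that set IL4.3WK apart from the other groups at 3 weeks. It was at 113.67, 13.34, 50.1, 100.83 and 96.89 counts in IL4.3WK, 12.15, 20.69, 9.23, 7.17 and 37.87 in MSC.3WK and 16.35, 12.39, 18.45 and 7.2 in PBS.3WK. In IL4.3WK 4 of 5 mice were above all mice of these 2 groups and replicate 1 was within their range. The log2 fold change was 2.48 ± 0.49 over PBS.3WK (adjusted p = 0.00634) and 2.01 ± 0.44 over MSC.3WK (adjusted p = 0.00935), the latter lost without IL4.3WK replicate 3 (1.89, adjusted p = 0.0512).

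The same 4 mice were high in striatum markers. Summed over 10 striatum markers, such as the dopamine receptors *Drd1* and *Drd2*, IL4.3WK replicates 0 to 4 held 950, 212, 938, 1570 and 1142 CPM, while the other 29 mice lay between 112 and 541 CPM. All 10 markers were higher in IL4.3WK than in PBS.3WK and 9 of 10 higher than in MSC.3WK. Hippocampus markers had a median log2 fold change of -1.06 in IL4.3WK against SHAM, -1.06 against PBS.3WK and -0.95 against MSC.3WK. All 8 had an unadjusted p under 0.05 in each, though not all of them were lower, and 2 were lower than in SHAM after adjustment. With a score of these markers as a covariate, *Eomes* no longer passed in IL4.3WK, at 1.44 over SHAM (adjusted p = 0.247), 1.63 over PBS.3WK (adjusted p = 0.647) and 1.21 over MSC.3WK (adjusted p = 0.490). In IL4.1WK, where the sum was 244 to 525 CPM, the covariate left *Eomes* at 1.21 over SHAM (adjusted p = 0.0267). With the covariate *Nkg7* in IL4.3WK against PBS.3WK went from 4.84 to 5.28 on the log2 scale (adjusted p = 0.0584) and *Gzma* in IL4.3WK against SHAM from 3.58 to 4.00 (adjusted p = 0.125), fitted values of genes near 0 counts in the control. At 1 week the summed striatum markers of IL4.1WK did not overlap those of PBS.1WK (160 to 233 CPM), with a median log2 fold change of 0.98 and 9 of 10 markers at an unadjusted p under 0.05, though none passed after adjustment. The 7 calls of IL4.1WK against PBS.1WK all held with the covariate. The dissection can set how much striatum a sample holds, and its part in *Eomes* cannot be told apart from the treatment here.

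**Figure D5:**
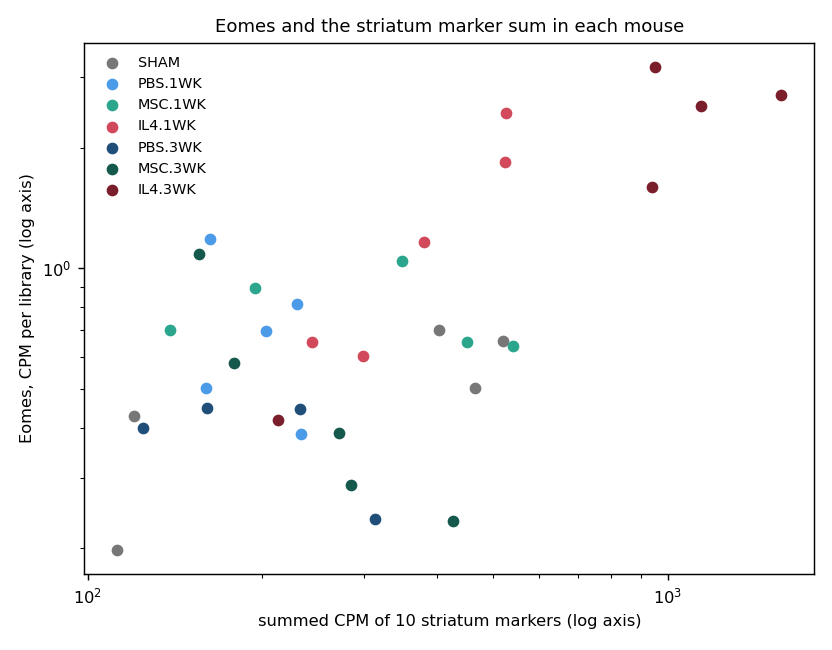
*Eomes* (CPM, log axis) against the summed CPM of 10 striatum markers (log axis) in each of 34 mice, coloured by group. The 4 IL4.3WK mice with 938 to 1570 CPM of striatum markers are high in *Eomes*, and the IL4.3WK mouse at 212 CPM is at a level like that of the other groups.

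Within groups, the members varied together only in part. After the group means were taken off, Pearson's r over 34 libraries was highest between *Gzma* and *Gzmb* at 0.69, followed by *Gzma* with *Klrd1* at 0.57, and *Gzmk* lay between -0.15 and 0.28 with the other 8. The genes most like *Gzmb* across the 34 libraries were *Slfn2* (0.82), *Cd74* (0.81) and *B2m* (0.80), like *Gzma* were *Ppm1m* (0.82), *H2-D1* (0.76) and *Gpr108* (0.71), and like *Klrd1* were *Ctse* (0.77), *Arhgap30* (0.76) and *Mapkapk3* (0.76). For the remaining members the best r was between 0.63 and 0.74. With a smaller constant added to the counts before the log, the genes named for *Gzmb* stayed its 3 most alike. *H2-D1* and *Gpr108* for *Gzma*, and *Arhgap30* and *Mapkapk3* for *Klrd1*, did not stay among the 3. MSC.3WK replicate 4, which stood apart from its group for *Gzma* and *Gzmb*, is among the points, and r without it was not computed. All points share library depth and 1 model of group means, and for genes with few counts these values describe the libraries only.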

How the data were processed

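Bulk RNA-seq of 34 libraries was analysed, read as 50 base pairs from both ends on a NovaSeq. Adapters were removed with cutadapt 2.4, and the authors quantified transcripts with kallisto 0.46 and deposited, per gene, estimated counts and TPM values, neither filtered here. The deposited table also holds the authors' own comparison columns (p-values, q-values and fold changes between pairs of groups), which were not used. One PBS.3WK mouse that the authors excluded is not analysed here. Replicates are mice numbered in the labels.

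Estimated counts were rounded and fitted in 1 model of all 34 libraries with edgeR 4.0.16 (R 4.3.3): filterByExpr by group, TMM normalization, glmQLFit and glmQLFTest, two-sided, adjusted by Benjamini-Hochberg over 17131 genes. SE is the absolute log2 fold change over the square root of F. CPM is the count scaled to a common library total. Where a group held 1 to 3 counts, a ratio with an exact binomial 95% interval is given in place of the fitted value, and where it held 0, a bound at 3 counts per library. Intervals and floors cover counting error only. DESeq2 1.42.0, other scaling, no filter, only the groups compared, sham of the same week, the replicate block, a striatum score and each mouse left out were alternatives.

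The members and gene lists were chosen with earlier results of these data known. Named genes are the 9 members, up to 3 genes of a list with the smallest adjusted p among those called, and, for likeness, the 3 genes with the highest Pearson r of log2 CPM after group means were taken off. *Ncr1*, *Cd8b1*, *Cd3g*, *Ifng*, *Ccl3*, *Ccl4*, *S100a8* and the granzymes *Gzmd* to *Gzmg*, where no call named them, were chosen after their values were seen.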

Additional observations from a re-analysis of the deposited data

Results flagged for a closer look

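In MSC.3WK, replicate 4 stood apart from the other 4 mice by Dixon's criterion for *Gzmb* (1.64 CPM, next highest 0.253), *Klrk1* (1.06 CPM, next highest 0.255) and *Gzma* (0.402 CPM, next highest 0.112). In MSC.1WK, replicate 2 stood apart for *Gzmb* (0.0815 CPM, next 0.0322) and replicate 1 for *Nkg7* (0.124 CPM, next 0.0322), which are 3 and 4 counts against 1. A single count against 0 in all the other mice set apart SHAM replicate 1 for *Gzma* (0.0241 CPM) and PBS.3WK replicate 1 for *Nkg7* (0.0322 CPM). These are 7 of 62 groups examined. The criterion's rate of about 1 in 20 holds for continuous values and not for counts this low, so the 7 cannot be set against it.

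The difference between IL4 and MSC was not the same at 1 and at 3 weeks for 7 members, by edgeR's interaction test: *Gzma* 5.38, *Gzmb* 6.45, *Prf1* 3.81, *Nkg7* 3.35, *Ctsw* 1.59, *Klrd1* 2.19 and *Klrk1* 2.50 on the log2 scale (adjusted p = 4.84e-05, 0.000147, 0.000171, 0.00479, 0.0138, 0.0196 and 0.0478). Each was larger at 1 week. Without MSC.3WK replicate 4 the values for *Klrd1* and *Klrk1* were 1.63 and 1.59 (adjusted p = 0.108 and 0.272), and those for *Gzmb* and *Gzma*, which still passed, were 4.81 and 4.44.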

How the results depend on the processing

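Of 52 member results that passed, 31 also passed under every alternative that gave a value and with each mouse left out, and 21 were lost under at least 1. None was lost with DESeq2 or with RLE scaling, 1 was lost with library totals alone, 3 without the filter, 9 with the striatum score and 10 with sham mice of the same week. No result changed sign. With only the groups compared in the fit, 6 were lost and 18 had no value because the gene then fell under the filter.

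The number of members that passed changed as follows. With sham of the same week it was 0 in PBS.1WK, MSC.1WK, MSC.3WK and IL4.3WK against SHAM. With only the groups compared it was 0 in those 4 comparisons, in all 3 between treatments at 3 weeks and in MSC.3WK against MSC.1WK, where members under the filter had no value. With the striatum score it was 2 in IL4.3WK against SHAM, 0 in IL4.3WK against PBS.3WK and against MSC.3WK, and 4 in the week difference of IL4 against MSC. With DESeq2 it was 2 in PBS.1WK and MSC.1WK against SHAM and in MSC.3WK against PBS.3WK, and 1 in the week difference of IL4 against PBS. The cause was not tested.

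Leaving out single mice, the number ranged from 0 to 1 in PBS.1WK, 0 to 2 in MSC.1WK, 2 to 6 in MSC.3WK and 3 to 4 in IL4.3WK against SHAM, from 0 to 2 in IL4.3WK against MSC.3WK and in MSC.3WK against PBS.3WK, from 2 to 4 in MSC.3WK against MSC.1WK, from 5 to 7 in IL4.3WK against IL4.1WK, and from 0 to 1 and 5 to 7 in the week differences of IL4 against PBS and against MSC. For IL4.1WK it was 7 to 8 against SHAM, 7 against PBS.1WK and 6 to 7 against MSC.1WK.

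With the replicate number as a block, 3 results were lost: *Gzma* in MSC.3WK against SHAM (adjusted p = 0.0543), *Ctsw* in MSC.3WK against MSC.1WK (0.0510) and *Klrk1* in the week difference of IL4 against MSC (0.0591). The median correlation of deviations was 0.0227 for same-numbered mice of different groups (30 of 99 pairs over 0.1). It was -0.0016 for the others (104 of 396 pairs over 0.1). No pairing by number was seen, which does not show that there was none.

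Depth limits the low members: in SHAM, PBS and MSC at 1 week *Gzma*, *Gzmb* and *Nkg7* held 4 counts or fewer per mouse, so that differences among these groups that did not pass the test are not shown to be absent.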

Other observations

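Of the other granzymes, a cluster was high in 1 mouse at 3 weeks. *Gzmm*, the only 1 of the 7 that passed the filter, had group means from 0.779 to 0.975 CPM. *Gzmd*, *Gzme*, *Gzmf* and *Gzmg*, a cluster of similar genes among which reads may be divided wrongly, were at 2.29 counts or fewer each in the other 6 groups. In IL4.3WK replicate 4 they were at 27.75, 7.77, 29.71 and 37.56 counts and *Gzmc* at 14.21, and in IL4.3WK replicate 1 at 7.62, 2.0, 8.0 and 4.38. *Gzma* was at 4 and 5 counts in these mice and at 0 to 7 in their group. IL4.3WK replicate 1 was also the mouse of that group that was low in striatum markers and in *Eomes*, while replicate 4 was high in both. No test was made, since the genes were under the filter.

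*Tbx21*, the T-box factor T-bet that acts beside *Eomes* in killer cells, was at 8 to 14 counts in IL4.1WK and 0 to 4 in SHAM (2.68 ± 0.60 on the log2 scale, edgeR adjusted p = 0.000638), and at 11, 11, 1, 5 and 17 counts in MSC.3WK (2.45 ± 0.62, adjusted p = 0.0417). In IL4.3WK, where *Eomes* was high in 4 of 5 mice, it was at 12, 3, 6, 4 and 12 counts (2.09 ± 0.64, adjusted p = 0.0568).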
